A study of Mus musculus with 6 samples.

Results

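A set of 10 genes of the homeostatic microglial state were followed in BODIPY-high and BODIPY-low microglia: Tmem119, Cx3cr1, Olfml3, Sparc, Slc2a5, Gpr34, Fcrls, Selplg, Crybb1 and Rhob. They were listed by symbol, with earlier results of these data known. All 10 were found among the 15912 genes of the deposited table, and all 10 passed the filter on low values (10 or more normalized counts in 3 or more of the 6 libraries), as did 12767 genes in all. The cells were hippocampal microglia of male C57BL/6 mice aged 3 months. All mice had been injected intraperitoneally with lipopolysaccharide (LPS, which bacteria carry in their outer membrane and which sets off inflammation) at 1 mg/kg on 4 days, with tissue collected 24 h after the final injection. Live CD11b+CD45lo cells, about 10000 per sample, were parted by BODIPY, a dye of neutral lipids, into a BODIPY-high gate (rich in lipid droplets, 3 libraries) and a BODIPY-low gate (3 libraries). Each sample pooled the hippocampi of 2 mice. Both gates came from LPS-treated mice, saline-treated mice were not analysed here, and the comparison is therefore between BODIPY gates within LPS treatment. The gates also differed in markers of other cells, as given below.

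Microglia are the resident macrophages of the brain. In the undisturbed brain they keep a characteristic set of transcripts that depends on brain-derived signals such as TGF-beta, and that is known to be lowered in many inflammatory and degenerative settings. Much of this set encodes proteins at the cell surface, with which microglia sense neurons, lipids and nucleotides, or proteins secreted into the matrix. Of the 10 genes, Tmem119, Cx3cr1, Gpr34, Fcrls, Selplg and Slc2a5 encode proteins of the cell membrane, and Olfml3 and Sparc encode secreted proteins. Rhob encodes a membrane-anchored small GTPase inside the cell and Crybb1 a crystallin, so these are neither surface nor secreted proteins.

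The libraries held 37633089 to 39220494 recovered reads in the BODIPY-high gate and 34899413 to 36518323 in the BODIPY-low gate. The lowest read number of any member in any library was 3130 (Crybb1), and counting error was at most 1.79% of a value, a limit that covers counting error only. BODIPY-high library 3 stood apart from the other BODIPY-high libraries in markers of border-associated macrophages, which line vessels and meninges: their summed level was 127418 normalized counts there, 44914 and 50400 in BODIPY-high libraries 1 and 2, and 17709 to 24926 in the BODIPY-low libraries. Most of the BODIPY-low sums was Stab1, which was not called (25133 ± 9638 in the BODIPY-high gate and 17327 ± 2649 in the BODIPY-low gate, SD, n = 3; limma adjusted p = 0.543). The median log2 deviation of the 14 markers from their means over 6 libraries was 0.92, 1.36 and 3.21 in BODIPY-high libraries 1, 2 and 3. In the BODIPY-low libraries it was -2.47, -2.44 and -0.57. Libraries of the same number deviated together from their gate means, so the fit with the library number as a block is given beside the fit with the gate alone wherever it changes a call. Whether each library of a gate came from mice of its own is not given in the labels, so the p-values refer to the spread among the libraries as deposited.

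The 10 genes had somewhat lower mean levels in BODIPY-high than in BODIPY-low microglia. Every log2 change was below 0, from -0.55 (Rhob) to -0.06 (Fcrls), with a median of -0.32, against a median of -0.0043 and 50.8% below 0 for all 12767 genes tested. With the gate alone, 0 of the 10 passed limma (adjusted p under 0.05 over all genes tested), against 0.0235% of all genes called lower and 2.05% called in either direction. At an unadjusted p under 0.05, 3 of the 10 were lower (Olfml3, Sparc and Slc2a5), against 2.27% of all genes, while edgeR called 0 and DESeq2 called 2 (Olfml3 and Sparc), against 0.00783% and 0.251% of genes called lower by these tools. With the replicate block, 4 of the 10 passed limma as lower: Olfml3, Sparc, Slc2a5 and Rhob. The background of that fit was 0.462% of all genes called lower, or 0.944% of the 5297 genes with a mean of at least 1000 normalized counts, a level that all 10 members exceed. In either direction, the share of all genes called was 4.83% with this block, 1.75% by edgeR, 3.89% by DESeq2 and 4.3% by edgeR with the block. Of all genes, 4.37% were called higher in the BODIPY-high gate with the block, 1.74% by edgeR, 3.63% by DESeq2, 3.91% by edgeR with the block and 8.03% by limma at an unadjusted p under 0.05. In bulk samples, fewer cells of a type and less RNA per cell cannot be told apart.

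**Figure D1:**
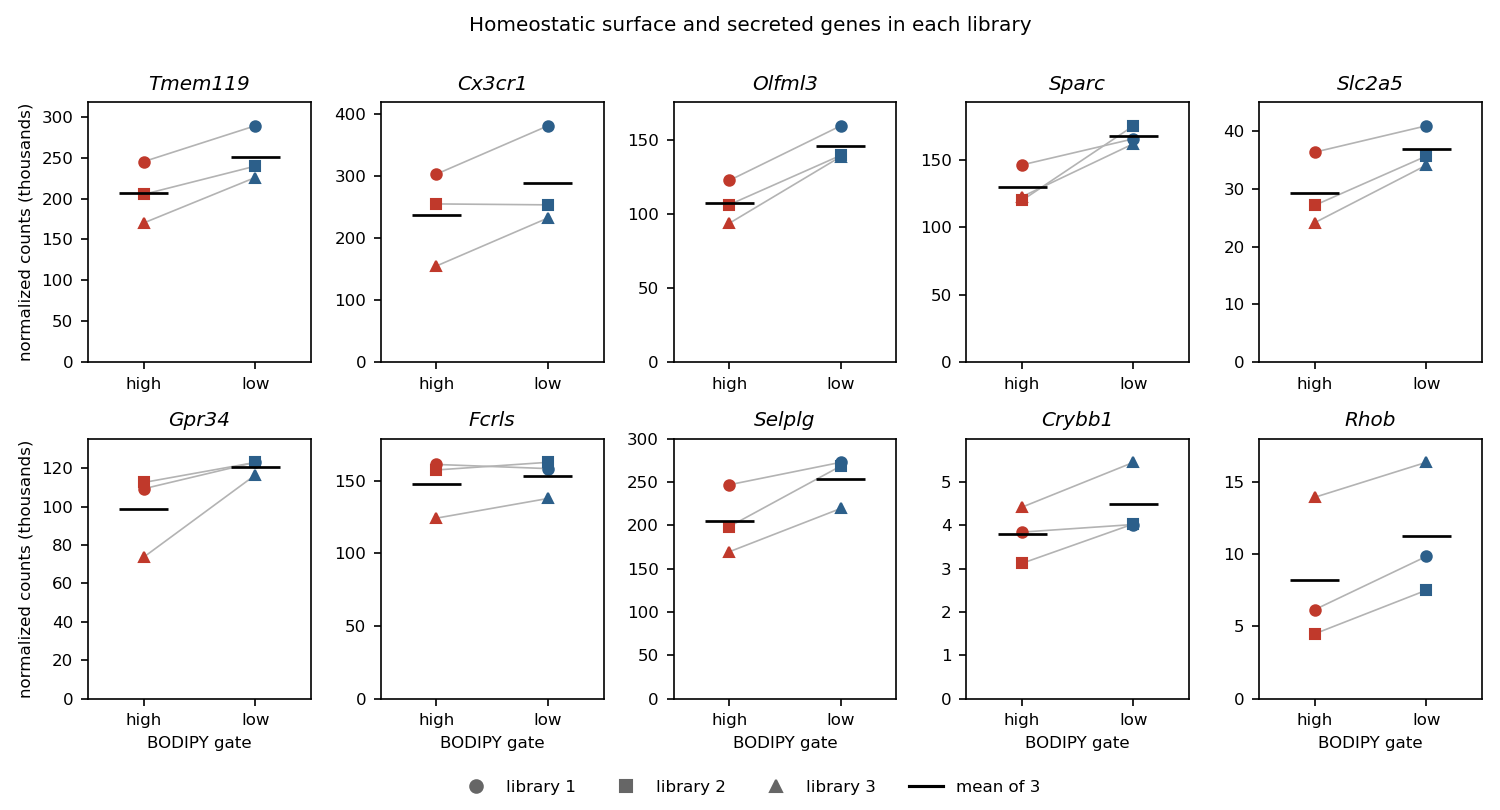
Normalized counts in units of 1000 (y axis, from 0) of the 10 genes in each BODIPY-high (left, red) and BODIPY-low (right, blue) library. Symbols mark library numbers 1 to 3, grey lines join libraries of the same number and black bars are means of 3. Olfml3, Sparc and Gpr34 do not overlap between the gates, and Rhob is highest in the libraries numbered 3 of both gates.

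With the gate alone, the genes of both secreted proteins had the smallest p of the 10. Olfml3, an olfactomedin-like glycoprotein, had 122929, 106524 and 93938 normalized counts in BODIPY-high libraries 1, 2 and 3, against 159891, 139897 and 139022 in the BODIPY-low libraries of the same numbers. Every BODIPY-high value lay below every BODIPY-low value. The mean was 107797 ± 14538 in the BODIPY-high gate and 146270 ± 11805 in the BODIPY-low gate (SD, n = 3 per gate), which is 26.3% lower. The log2 change was -0.45 ± 0.14 (SE; limma adjusted p = 0.217; adjusted p = 0.0111 with the replicate block).

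Sparc, a matricellular protein that binds collagen and calcium, had 146215, 119899 and 122619 normalized counts in BODIPY-high libraries 1, 2 and 3, against 165536, 175170 and 161918 in the BODIPY-low libraries. These ranges did not overlap either, and BODIPY-high library 1 was the nearest to the BODIPY-low gate. The log2 change was -0.38 ± 0.13 (SE; limma adjusted p = 0.292; adjusted p = 0.0451 with the replicate block). Sparc is also known from astrocytes, endothelium and fibroblasts. Summed astrocyte markers were 12984 to 14744 normalized counts in the BODIPY-high libraries and 10965 to 11930 in the BODIPY-low libraries. Most of that sum was Slc1a3, a glutamate transporter gene (10903 ± 1608 in the BODIPY-high gate and 11100 ± 554 in the BODIPY-low gate), while 5 of the 10 tested astrocyte markers passed limma as higher. These were Clu, Aldoc, Atp1b2, Aldh1l1 and Sox9. With the gate alone Gfap, Gja1, Mlc1 and Slc1a2 did not pass (limma adjusted p of 0.087, 0.0917, 0.169 and 0.265), and with the block 7 markers were called higher. The part of such cells in the level of Sparc was not tested.

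Slc2a5, which encodes the fructose transporter GLUT5, had 36384, 27178 and 24169 normalized counts in BODIPY-high libraries 1, 2 and 3, against 40943, 35693 and 34116 in the BODIPY-low libraries. It was lower in 3 of 3 pairs of the same number, but BODIPY-high library 1 lay above BODIPY-low libraries 2 and 3. The log2 change was -0.35 ± 0.15 (SE; limma adjusted p = 0.477; adjusted p = 0.034 with the replicate block).

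Among the surface proteins, Tmem119, a transmembrane protein widely used as a microglial marker, had 245162, 205139 and 170161 normalized counts in BODIPY-high libraries 1, 2 and 3, against 288932, 239582 and 225686 in the BODIPY-low libraries. The gates overlapped, and each pair was lower in the BODIPY-high library, at 84.9, 85.6 and 75.4% of its BODIPY-low partner. The log2 change was -0.29 with a 95% interval of -0.68 to 0.10 with the gate alone, and of -0.48 to -0.10 with the replicate block, where it did not pass over all genes (limma adjusted p = 0.0978).

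Cx3cr1, the receptor for the neuronal chemokine fractalkine, had 303405, 255254 and 155153 normalized counts in BODIPY-high libraries 1, 2 and 3, against 381275, 253761 and 232570 in the BODIPY-low libraries. It had the widest spread over libraries of the 6 surface proteins, with the top value 2.46 times the lowest one. The BODIPY-high libraries were at 79.6, 101 and 66.7% of their partners, so the second pair showed no reduction. The mean log2 change was -0.30, and -0.021 without BODIPY-high library 3, the library with the most border-associated macrophage transcripts. Without BODIPY-low library 1, its highest value, it was -0.0849.

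Gpr34, a receptor for lysophosphatidylserine, had 109282, 112552 and 73673 normalized counts in BODIPY-high libraries 1, 2 and 3, against 123057, 122986 and 116387 in the BODIPY-low libraries. The gates did not overlap, but BODIPY-high libraries 1 and 2 lay close to the BODIPY-low gate, and the third was at 63.3% of its partner. Its log2 change of -0.32 was -0.12 without BODIPY-high library 3 (limma adjusted p = 0.594 with all libraries and 0.142 with the replicate block).

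Selplg encodes PSGL-1, a mucin-like ligand of P-selectin that other leukocytes carry too. It had 246828, 198543 and 169475 normalized counts in BODIPY-high libraries 1, 2 and 3, against 272753, 268392 and 219460 in the BODIPY-low libraries. The gates overlapped, with 3 of 3 pairs lower. The log2 change was -0.32 ± 0.17 (SE; limma adjusted p = 0.617; adjusted p = 0.0865 with the replicate block).

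Fcrls, an Fc receptor-like scavenger receptor, differed least. It had 161113, 157319 and 124172 normalized counts in BODIPY-high libraries 1, 2 and 3, against 158258, 162583 and 137700 in the BODIPY-low libraries. The first pair was slightly higher in the BODIPY-high library (102% of its partner) and the third was at 90.2%. The 95% interval of the log2 change with the replicate block ran from -0.24 to 0.12, and the sign turned without BODIPY-high library 3 (0.063).

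Crybb1, a crystallin known from the lens and from microglia, and Rhob followed another pattern over libraries. Crybb1 had 3841, 3121 and 4417 normalized counts in BODIPY-high libraries 1, 2 and 3, against 4016, 4030 and 5451 in the BODIPY-low libraries. In both gates the third library was highest, and all 3 pairs were lower in the BODIPY-high library (log2 change -0.25; limma adjusted p = 0.161 with the replicate block).

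Rhob, whose product acts on endosomes and which is known as an immediate early gene, had 6158, 4485 and 13930 normalized counts in BODIPY-high libraries 1, 2 and 3, against 9835, 7497 and 16348 in the BODIPY-low libraries. The libraries numbered 3 held 3.11 times as much as those numbered 2 in the BODIPY-high gate and 2.18 times as much in the BODIPY-low gate, more than the step between gates. Within each number the BODIPY-high library was lower, at 62.6, 59.8 and 85.2% of its partner. Its log2 change was -0.55, with a SE of 0.40 with the gate alone (limma adjusted p = 0.752) and 0.10 with the replicate block (adjusted p = 0.012). With the gate alone it was -1.02 when BODIPY-high library 3 was left out and -0.20 when BODIPY-high library 2 was.

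The list of 19 immediate early and dissociation response genes had a summed level of 179541, 169545 and 340284 normalized counts in BODIPY-high libraries 1, 2 and 3, against 201688, 207646 and 296308 in the BODIPY-low libraries. This sum was highest in the libraries numbered 3 of both gates, though not every gene of the list was. Of the 19, 0 passed limma in either direction with the gate alone or with the replicate block (at an unadjusted p under 0.05, 2 were higher and 1 lower; edgeR and DESeq2 called 0), and their median log2 change was -0.026. Their part in the level of Rhob was not tested.

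**Figure D2:**
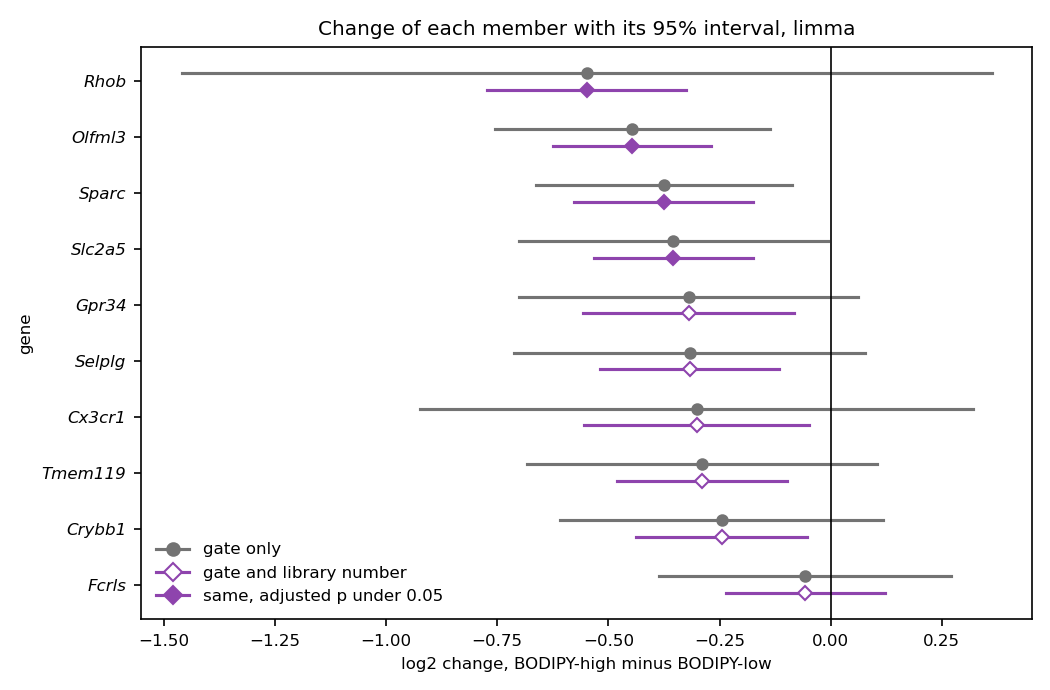
Log2 change of each gene, BODIPY-high minus BODIPY-low (x axis), with 95% intervals from limma with the gate alone (grey circles) and with the library number added (purple diamonds, filled where the adjusted p over all genes was under 0.05). All estimates lie left of 0, and the intervals of Rhob and Cx3cr1 shrink most when the number is added.

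The calls with the replicate block were also read with each number left out in turn, which leaves 2 pairs. Olfml3 passed in each of these 3 fits (limma adjusted p of 0.0347, 0.0494 and 0.0202 without numbers 1, 2 and 3). Of the 12767 genes tested, 80, 33 and 21 were called lower in these fits. Without number 2, Sparc, Slc2a5 and Rhob did not pass (adjusted p of 0.222, 0.13 and 0.0721). Without number 3, Rhob passed (adjusted p = 0.00139), and Sparc and Slc2a5 did not (0.0855 and 0.142). With edgeR and the block the same 4 genes passed, with adjusted p of 0.00798 for Olfml3, 0.034 for Sparc, 0.0473 for Slc2a5 and 0.0136 for Rhob, against 0.392% of all genes called lower.

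Paired by number, 8 of the 10 genes were lower in 3 of 3 pairs, against 19% of all genes tested and 22.6% of genes with a mean of at least 1000. Cx3cr1 and Fcrls were lower in 2 of 3. Ranges did not overlap for 3 of the 10 (Olfml3, Sparc and Gpr34), against 5.95% of all genes and 6.93% of genes with a mean of at least 1000. Together the 10 genes made up 3.66, 3.17 and 2.64% of normalized counts in BODIPY-high libraries 1, 2 and 3, against 4.19, 3.74 and 3.46% in the BODIPY-low libraries. Each BODIPY-high library was below its partner, while the gates overlapped.

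**Figure D3:**
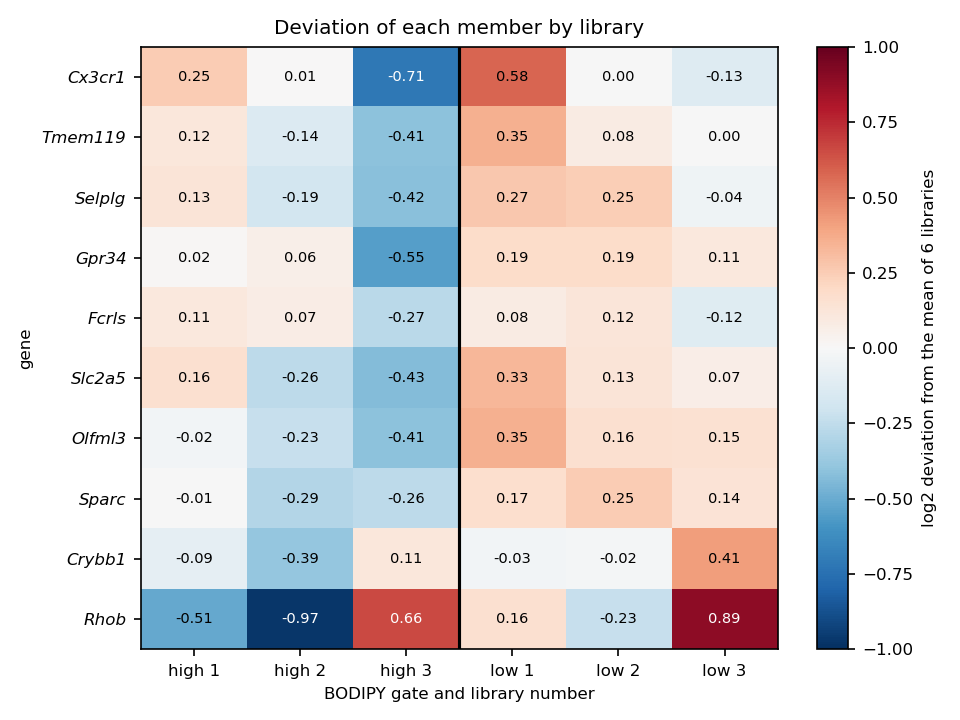
Log2 deviation of each gene (rows) from its mean over 6 libraries (columns, BODIPY-high left of BODIPY-low, split by the black line). Blue is below and red above that mean. Cx3cr1 has its lowest value, -0.71, in BODIPY-high library 3, where Rhob is at 0.66.

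The genes split into 2 patterns over the libraries, a grouping made after their values were seen. Rhob and Crybb1 varied together (Pearson r of 0.93 over 6 libraries, log2 scale). Among the other 8, the 28 pairwise coefficients ran from 0.42 (Sparc with Fcrls) to 0.97 (Tmem119 with Slc2a5), with a median of 0.83. Between these 8 and either Rhob or Crybb1 they ran from -0.76 to 0.44. The 6 points share gates and numbers, so these coefficients are descriptions with no test. BODIPY-high library 3 was the lowest library for 7 of the other 8, and BODIPY-high library 2 was the lowest for Sparc.

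Tmem119 (chromosome 5, 113793729 to 113800516, mm10) and Selplg (chromosome 5, 113818536 to 113832644) are neighbours on the same strand, 18019 bases apart with 1 other annotated gene between them, and their profiles had an r of 0.95. Olfml3 lies on chromosome 3 (103722222 to 103738001), Sparc on chromosome 11 (55394500 to 55423183), Slc2a5 on chromosome 4 (150119283 to 150144169) and Rhob on chromosome 12 (8497661 to 8500009). The library kits named in the labels do not mark strand. In GENCODE M21, exons of the members share no base with exons of another gene in the table. An antisense RNA outside the table covers 1.73% of the exon bases of Cx3cr1.

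The promoter windows of the 4 genes that passed with the block, and of Fcrls, which differed least, are shown to set the sequences beside these changes. They run from 250 bases before to 50 bases after the start site (RefSeq, GRCm38.p6, which is mm10), 5′ to 3′ on the strand of the gene. Windows were found for 7 of the 10 genes. Capitals mark matches to the motifs searched on both strands, none of which overlapped in these windows, and Olfml3 held none.
Olfml3: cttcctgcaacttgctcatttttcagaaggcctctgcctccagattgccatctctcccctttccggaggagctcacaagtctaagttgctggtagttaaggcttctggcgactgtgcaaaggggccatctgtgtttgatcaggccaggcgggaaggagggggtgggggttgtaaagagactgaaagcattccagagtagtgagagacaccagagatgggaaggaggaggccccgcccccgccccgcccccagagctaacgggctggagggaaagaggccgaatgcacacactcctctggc
Sparc: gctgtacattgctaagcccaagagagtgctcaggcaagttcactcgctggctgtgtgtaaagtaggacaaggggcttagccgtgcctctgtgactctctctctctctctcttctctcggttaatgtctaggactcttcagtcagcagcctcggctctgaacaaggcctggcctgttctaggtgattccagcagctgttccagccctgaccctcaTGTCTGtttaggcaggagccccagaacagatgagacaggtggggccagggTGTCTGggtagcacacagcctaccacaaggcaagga
Slc2a5: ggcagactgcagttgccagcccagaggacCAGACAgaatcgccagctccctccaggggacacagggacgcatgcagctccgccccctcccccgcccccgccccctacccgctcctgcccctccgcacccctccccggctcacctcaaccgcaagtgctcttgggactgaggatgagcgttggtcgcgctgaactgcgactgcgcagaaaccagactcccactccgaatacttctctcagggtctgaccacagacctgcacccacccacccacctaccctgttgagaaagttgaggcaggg
Rhob: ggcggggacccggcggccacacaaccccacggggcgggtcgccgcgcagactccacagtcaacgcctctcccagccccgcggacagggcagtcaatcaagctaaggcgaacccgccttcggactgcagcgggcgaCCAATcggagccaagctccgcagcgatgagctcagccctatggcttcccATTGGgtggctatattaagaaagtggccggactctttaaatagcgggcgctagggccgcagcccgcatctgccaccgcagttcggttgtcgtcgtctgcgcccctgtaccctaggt
Fcrls: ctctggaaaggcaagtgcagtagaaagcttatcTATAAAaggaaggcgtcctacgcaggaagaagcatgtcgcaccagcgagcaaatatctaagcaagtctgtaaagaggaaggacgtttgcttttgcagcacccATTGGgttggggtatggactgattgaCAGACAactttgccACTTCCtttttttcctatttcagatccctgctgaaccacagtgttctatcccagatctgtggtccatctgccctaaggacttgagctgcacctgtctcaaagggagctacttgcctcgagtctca
These are chr3:103737952-103738251 (minus strand), chr11:55420031-55420330 (minus), chr4:150119094-150119393 (plus), chr12:8499960-8500259 (minus) and chr3:87263475-87263774 (minus).

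The SMAD motif CAGACA was found in the windows of Sparc, Slc2a5 and Fcrls, and of Crybb1, and 21.0% of all 32851 windows held it. Sparc held 2 copies, at -36 and 14 from the start site, both as the reverse complement. The CCAAT box was found in Rhob, Fcrls, Crybb1 and Cx3cr1, against 37.4% of all windows, and Rhob held 2. The PU.1 core GGAAGT was found in Fcrls, against 23.8% of all windows, and the MEF2 motif (CTA and TAG with 4 bases between them) in Cx3cr1, against 3.69%. The TATA box TATAAA was found in Fcrls and Crybb1, against 13.6%. The longer PU.1 motif GAGGAAGT (3.20% of all windows), which contains GGAAGT, the AP-1 motif TGANTCA (7.81%) and the IRF motif (GAAA repeated after 2 bases; 3.44%) had no match in the 7 windows, which says only that these letters are not there. A match is a description and not a binding site. GC content of the windows was 65.3% for Rhob and Slc2a5, 58.0% for Olfml3, 55.3% for Sparc and 48.0% for Fcrls, with a median of 52.7% over all windows.

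Per kilobase of the principal transcript, the order of mean levels in the BODIPY-high gate was Selplg, Tmem119, Fcrls, Sparc, Cx3cr1, Gpr34, Olfml3, Slc2a5, Crybb1 and Rhob. Levels per kilobase ran from 110484 ± 21063 (Selplg) through 92248 ± 16739 (Tmem119) and 64907 ± 8940 (Fcrls) to 3487 ± 2145 (Rhob) normalized counts per kilobase in the BODIPY-high gate (SD, n = 3). In the BODIPY-low gate Selplg was at 136676 ± 15952 and Rhob at 4779 ± 1952, and the order was the same but for Sparc, which stood before Fcrls there. In the BODIPY-high gate, Selplg and Tmem119 overlapped over libraries, and so did each neighbouring pair from Fcrls to Gpr34, and Crybb1 and Rhob. Gpr34, Olfml3, Slc2a5 and Crybb1 were separated from one another. With all exons of a gene joined as its length, Tmem119 came first and Selplg took rank 4, so the order of the upper 6 genes depends on the length used. In the BODIPY-low gate the order of the last genes did too, with Rhob (4779) before Crybb1 (4567) on the joined length.

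Other genes of the homeostatic state lay mostly on the same side. Of 38 listed, 37 were tested and 36 had a log2 change below 0, with a median of -0.20 against -0.32 for the 10 genes, and 0 passed limma with the gate alone or with the block (at an unadjusted p under 0.05, 3 were lower; edgeR called 0 and DESeq2 2). The nearest were Cst3, which encodes the protease inhibitor cystatin C, Ltc4s, the leukotriene C4 synthase gene, Ecscr and C1qa of the complement. Cst3 averaged 387963 ± 27001 normalized counts in the BODIPY-high gate and 523472 ± 64751 in the BODIPY-low gate (SD, n = 3), with a log2 change of -0.43 (limma adjusted p = 0.389; 0.0513 with the block), and it passed DESeq2 (adjusted p = 0.0097) and edgeR with the block (0.0219). The median of this list was -0.053 without BODIPY-high library 3, and that of the 10 genes was -0.21.

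Genes shared by microglia and other macrophages were closer to 0. Of 16, 14 had a log2 change below 0, with a median of -0.13, and 0 passed limma with the gate alone (at an unadjusted p under 0.05, 1 was higher and 1 lower; edgeR and DESeq2 called 0). With the block 1 was higher, the NADPH oxidase gene Cybb, with 9675 ± 5342 normalized counts in the BODIPY-high gate and 4622 ± 1445 in the BODIPY-low gate (limma adjusted p = 0.412 with the gate alone; 0.00257 with the block). Coro1a, an actin-binding protein of leukocytes, averaged 22364 ± 430 in the BODIPY-high gate and 25408 ± 786 in the BODIPY-low gate, and was not called (limma adjusted p = 0.503; 0.175 with the block). The gene lower at an unadjusted p under 0.05 was Ly86 (log2 change -0.25; limma adjusted p = 0.469). With each library scaled to these 16 genes, the median of the 10 members was -0.26 and that of all genes tested 0.055. On that scale the log2 change of Fcrls was 0.00255, the other 9 stayed below 0, and none passed limma.

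Ligands, relatives and partners of the 10 genes were tested as a list of 33, of which 23 passed the filter. Of these, 1 passed limma as higher: Olfml1, a relative of Olfml3, with 32.9 ± 25.0 normalized counts in the BODIPY-high gate (SD, n = 3), against 0, 0 and 2.1 in the BODIPY-low libraries, the last of these 2 reads and under the floor of 3 reads. Its call held without BODIPY-low library 3 (limma adjusted p = 0.0393) and was lost without any other single library (adjusted p of 0.0862 to 0.253) and by edgeR (0.0596). With the block 4 were higher and 0 lower, against 4.37% of all genes called higher. Cx3cl1, the ligand of Cx3cr1, averaged 126 ± 18.1 in the BODIPY-high gate and 41.2 ± 10.3 in the BODIPY-low gate (limma adjusted p = 0.0512; 0.0259 with the block). Sparcl1, a relative of Sparc known from astrocytes and vessels, averaged 270 ± 83.6 in the BODIPY-high gate and 99.3 ± 22.5 in the BODIPY-low gate (adjusted p = 0.0705; 0.0117 with the block). The median log2 change of the list was 0.02.

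The disease-associated state is known from microglia around plaques and dying neurons, and its genes lay mostly on the other side: 19 of 26 had a log2 change above 0, with a median of 0.35. The 7 below 0 were Trem2, Tyrobp, Cd9, Ctsd, Ctsl, B2m and Cd52. Trem2 averaged 39630 ± 958 in the BODIPY-high gate and 48227 ± 2839 in the BODIPY-low gate (SD, n = 3; limma adjusted p = 0.278; 0.0564 with the block). In all, 3 passed limma as higher, against 2.03% of all genes: the lipase gene Lpl, the growth factor gene Igf1 and the inhibitory receptor gene Lilrb4a. With the block 9 were higher and 0 lower, against 4.37% of all genes called higher. At an unadjusted p under 0.05, 8 were higher and 1 lower (Trem2), while edgeR called 3 and DESeq2 6. Lpl averaged 2502 ± 393 in the BODIPY-high gate and 949 ± 144 in the BODIPY-low gate (limma adjusted p = 0.00493). Igf1 had 329, 653 and 1157 in BODIPY-high libraries 1, 2 and 3, against 68.0, 86.6 and 140 in the BODIPY-low libraries, and is also known from border-associated macrophages. Without BODIPY-high library 2, none of the 3 passed (limma adjusted p of 0.0522 for Lpl, 0.117 for Igf1 and 0.212 for Lilrb4a). Igf1 and Lilrb4a also missed the threshold without BODIPY-high library 3 (0.063 and 0.157), BODIPY-low library 1 (0.0679 and 0.145) or BODIPY-low library 2 (0.0757 and 0.151).

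Markers of other cells moved with the gates as follows, and their part in the levels of the 10 genes was not tested. Of 14 border-associated macrophage markers, 10 passed limma as higher (median log2 change 3.66, or 2.91 without BODIPY-high library 3), against 2.03% of all genes. Of 13 choroid plexus markers, all 13 did (6.01), with sums of 40592 to 53490 normalized counts in the BODIPY-high libraries and 313 to 2383 in the BODIPY-low libraries. Among 10 tested astrocyte markers 5 were higher (2.17), among 7 oligodendrocyte markers 1 (1.303) and among 4 oligodendrocyte precursor markers 2 (3.97). Among 5 mural markers 1 was higher (1.08) and among 8 monocyte markers 1 (0.18), and none in these lists was called lower. The called gene of the monocyte list was Ace (256 ± 69.0 in the BODIPY-high gate and 8.09 ± 4.93 in the BODIPY-low gate, SD, n = 3), while 3 of the 8 had a log2 change below 0. The log2 change of Ace, 4.92, was near the lowest of the choroid plexus markers (4.92 to 6.90). For Ly6c2, Chil3 and Ccr2 of the monocyte list it was 0.09, -0.02 and 0.77, with no call. Which cells held the Ace transcripts was not tested. Of 4 neuron, 11 endothelial, 10 neutrophil and 5 lymphocyte and dendritic cell markers and 1 fibroblast marker, 0 passed limma with the gate alone (median log2 changes of 0.36, -0.02, 0.02, 0.24 and 1.97). At an unadjusted p under 0.05, 1 neuron and 2 neutrophil markers of these were higher, while edgeR called 0 and DESeq2 1. With the block, the markers called higher were 13 of border-associated macrophages, 7 of astrocytes, 2 of oligodendrocytes, 2 of neutrophils (Mmp9 and Retnlg; limma adjusted p of 0.00626 and 0.025) and 1 of lymphocytes and dendritic cells (Cd209a; 0.0346), and the other marker counts were as with the gate alone. Listed at 0 in all BODIPY-low libraries were 2 neuron, 2 fibroblast, 1 oligodendrocyte precursor (Pdgfra) and 1 lymphocyte or dendritic cell marker, and 0 markers were at 0 in all BODIPY-high libraries.

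The neutrophil list had a sum of 104544, 138918 and 290015 normalized counts in BODIPY-high libraries 1, 2 and 3, against 89853, 197867 and 199055 in the BODIPY-low libraries. Part of each sum was Csf3r, which averaged 36756 in the BODIPY-high gate and 36783 in the BODIPY-low gate. BODIPY-high library 3 had the most border-associated macrophage and neutrophil transcripts. The 10 genes had their lowest sum there, 951706 normalized counts, against 1288657 to 1604495 in the BODIPY-low libraries. BODIPY-low libraries 2 and 3 exceeded BODIPY-high library 2 in the neutrophil sum and also in the sum of the 10 genes. A link between these sums was not tested. In BODIPY-high libraries 1 and 2 the sums were 1381317 and 1190013, each below its partner of 1604495 and 1409590. With both libraries numbered 3 left out, the median log2 change of the 10 genes was -0.26 and all 10 were below 0.

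**Figure D4:**
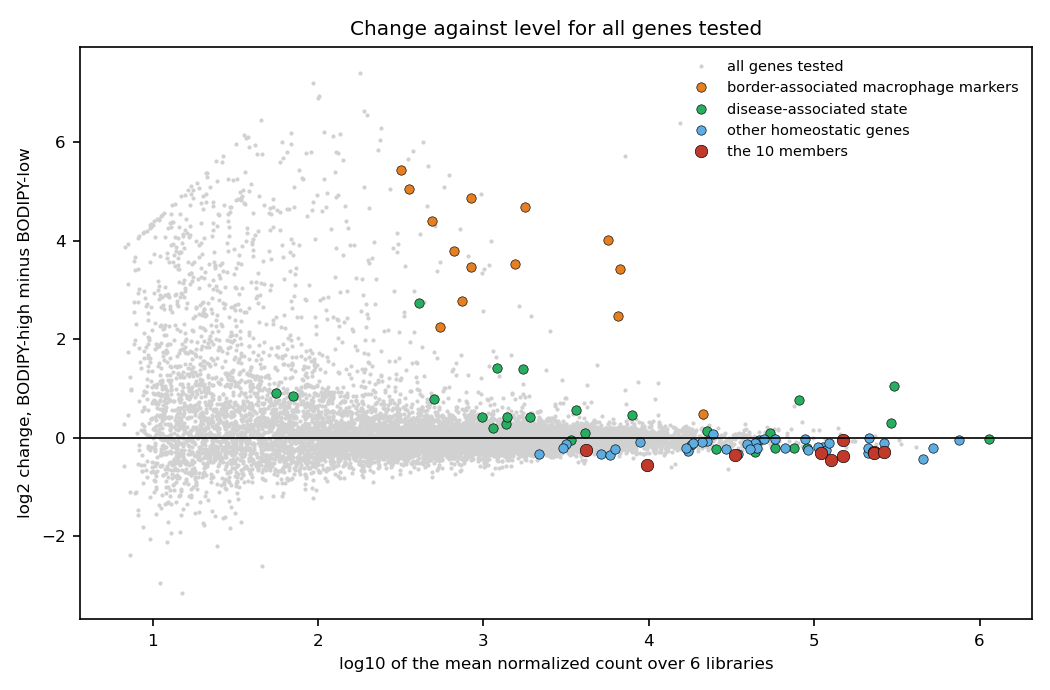
Log2 change, BODIPY-high minus BODIPY-low (y axis), against the log10 mean normalized count over 6 libraries (x axis) for the 12767 genes tested. The 10 genes (red) lie just below 0 at high levels, the other homeostatic genes (blue) near them, border-associated macrophage markers (orange) above 0, and genes of the disease-associated state (green) mostly above 0.

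The genes whose profile over the 6 libraries was most like the mean profile of the 10, out of 10385 compared, were Jmjd1c (a JmjC domain protein; r = 0.998), Dip2b (0.988), Slc25a11 (the mitochondrial 2-oxoglutarate carrier; 0.986), Ctsl (cathepsin L; 0.979), Nat6 (0.978) and Ftsj2 (0.976). Jmjd1c averaged 1955 ± 245 in the BODIPY-high gate and 2464 ± 166 in the BODIPY-low gate (limma adjusted p = 0.315). The 3 most opposite were Numbl (-0.996), Csrp1 (-0.990) and Ptger4, a prostaglandin E2 receptor (-0.990). Ptger4 averaged 1212 ± 316 in the BODIPY-high gate and 633 ± 122 in the BODIPY-low gate, and passed with the block (limma adjusted p = 0.105; 0.00175 with the block). The mean profile joins both patterns of the 10 genes, and Rhob had the widest deviations in it (-0.97 to 0.89). Coefficients picked as the extremes of 10385 over 6 points, which share gates and numbers, are descriptions of these libraries.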

How the data were processed

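RNA of 6 libraries was sequenced by the authors. Per the series' design text, reads were checked with FastQC 0.11.4, aligned to mm10 with STAR 2.5.3a, counted per gene and tested with DESeq2, while mm9 stands beside mm10 in the submitters' processing notes. The annotation used for counting is not given in the sources used here. Deposited values are a signal: read counts per gene after division, by the authors, by each library's size factor. All values (100%) were whole multiples of 1 step per library within 0.05 of a read, which gave back reads and size factors of 0.911 to 1.09. In BODIPY-high libraries 1 and 2 the size factors (0.999 and 1.003) are so near 1 that whole reads are hard to tell from rounded values, and the depths, edgeR and DESeq2 rest on these reads. No 2 libraries of a gate agreed within sampling noise (chi-square per degree of freedom of at least 30.6).

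Gates were compared by limma-trend (limma version 3.58.1 in R 4.3.3; two-sided p). Values entered as log2 of the normalized count plus a pseudocount of 1, so fold changes are on that scale. Gate was the single covariate, and Benjamini-Hochberg adjustment ran over 12767 genes. The alternative with the library number as a block rests on deviations shared by libraries of the same number, not on the labels. Over 10912 genes the Pearson r of their deviations from the gate means was 0.53, 0.40 and 0.51 for numbers 1, 2 and 3 (each above the 0.1 required). For libraries of different numbers it was -0.36 to -0.12. Centring on the gate means makes these negative when the same-number values are positive, so they add no separate evidence for the block. edgeR 4.0.16 and DESeq2 1.42.0 ran on the recovered reads, and 20 alternatives were run in all, 5 of them chosen after seeing the data. Simulated counts were used to try limma and edgeR with and without the block, and DESeq2, but not the other alternatives. These counts held no shared deviation of library numbers and larger changes than those of the members. They therefore do not test how the block calls genes like the members. Named genes were the members, up to 4 genes of smallest p from each of 17 other lists, and the 6 most and 3 least alike in profile among genes with a mean of at least 50, of which the text names a part. The members and lists were chosen with earlier results of these data known. Spreadsheet software had turned 23 gene names into dates, and none is named.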

Additional observations from a re-analysis of the deposited data

How the results depend on the processing

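All 10 members kept a log2 change below 0 in the 20 alternatives, except that the log2 change of Fcrls was -0.13 to 0.063 with 1 library left out (above 0 only without BODIPY-high library 3) and 0.00255 when scaled to the pan-macrophage genes. The median log2 change of the 10 members ran from -0.445 to -0.208 with 1 library left out, and from -0.399 to -0.256 in the block with 1 number left out. Of the 10, 4 were called lower with the replicate block, 4 by edgeR with the block and 2 by DESeq2, and 1 to 4 with the block and 1 number left out. With 1 library left out and the gate alone, 0 passed, and in no setting was a member called higher.

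The genes called higher in BODIPY-high were 259, and the genes called lower in BODIPY-high were 3, with the gate alone. The counts were 558 and 59 with the replicate block, 499 and 50 by edgeR with the block, 464 and 32 by DESeq2, 222 and 1 by edgeR, 131 and 1 with the stricter filter (at least 50), 288 and 0 when scaled to the pan-macrophage genes, and 117 and 0 with both libraries numbered 3 left out. They ran from 15 to 271 higher and 0 to 2 lower with 1 library left out, and 702 and 80, 346 and 33, and 279 and 21 in the block without numbers 1, 2 and 3. The stricter filter and left-out libraries test fewer genes or samples; otherwise the cause was not tested. Counting error was at most 1.79% of a member's value.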
